A study of Mus musculus with 12 samples.

Results

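Actinobacteriota and Proteobacteria are 2 of the 34 named phyla in the female tables and 2 of the 84 in the male tables of a 16S rRNA survey of mouse feces. Their rows were taken by name from 4 tables, a library table and a group table for each sex, and both phyla had a row in all 4. The study fed male and female mice CD or HfiD for 5 weeks and then HFD for 0, 4 or 8 weeks, which gives 12 groups. The series title speaks of high fiber and of high fat feeding; CD is not spelled out in the labels and is kept as a code. For strain, age, housing and animals per group, no information was at hand. The V4 region of the 16S gene was amplified from DNA of fecal pellets, and each value is the share of a library's reads assigned to a phylum, given here in percent.

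Actinobacteriota are Gram-positive bacteria that include Bifidobacterium, known for fermenting plant and milk sugars, and the Coriobacteriia, some of which modify bile acids. Proteobacteria are Gram-negative and include Escherichia and its relatives, many of which can grow with or without oxygen; in the healthy colon they are usually a minor phylum beside the strict anaerobes of Firmicutes and Bacteroidota. Both phyla also hold many bacteria of soil and water. A phylum total does not show which of its genera were present.

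The female library table had 48 columns, from 16 codes that each occurred with no suffix, with 4w and with 8w. The male library table had 67 columns whose names carried no week. No code names a feed, so libraries were put in no feed group, and feeds are compared only through the authors' group values. For the females the suffix was read as weeks of HFD and its absence as 0 weeks. The mean over the 16 libraries of a suffix differed from the mean of the 2 group values of that week by at most 4.14e-05 percentage points for any named phylum. No 2 library columns of a table were identical. The 16S reads behind a library are unknown, as the sources used here do not state them. Neither a counting interval nor a detection limit was set, and a phylum at 0 is only listed at 0. Shares of a library sum to 100%, so they show relative and not absolute amounts.

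Proteobacteria were far scarcer in the female libraries with a week suffix than in those without one. With no suffix their share ran from 0.173% through a median of 1.51% to 3.78%, with an upper quartile of 2.33%, and it reached 1% in 12 of 16 libraries. At 4w the share ran from 0 through a median of 0.0427% to 0.824%, and no library reached 1%. At 8w it ran from 0.00407% through a median of 0.0275% to 0.604%, again with no library at 1%. The means were 1.63%, 0.147% and 0.0923% in the same order. The ranges overlapped only at their edges: 13 of the 16 libraries with no suffix lay above the highest 4w library, and 12 of the 16 4w libraries lay below the lowest with no suffix. Proteobacteria were above 0 in 45 of 48 libraries, and the 3 listed at 0 were all 4w libraries.

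Followed by code, Proteobacteria were lower at 4w than with no suffix in 16 of 16 codes. The median ratio was 30.7-fold over the 13 codes above 0 at both. At 8w they were below the level with no suffix in 15 of 16 codes, with a median ratio of 38.7-fold; the exception was A941, which held 0.179% with no suffix, 0.173% at 4w and 0.203% at 8w. The share was higher at 8w than at 4w in 8 codes and lower in 8. The sources used here do not say that a code marks 1 animal, and the libraries with no suffix entered no test. Weeks of HFD cannot be told apart from the age of the mice or the time of collection, since no group stayed on its first feed at the later times.

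**Figure D1:**
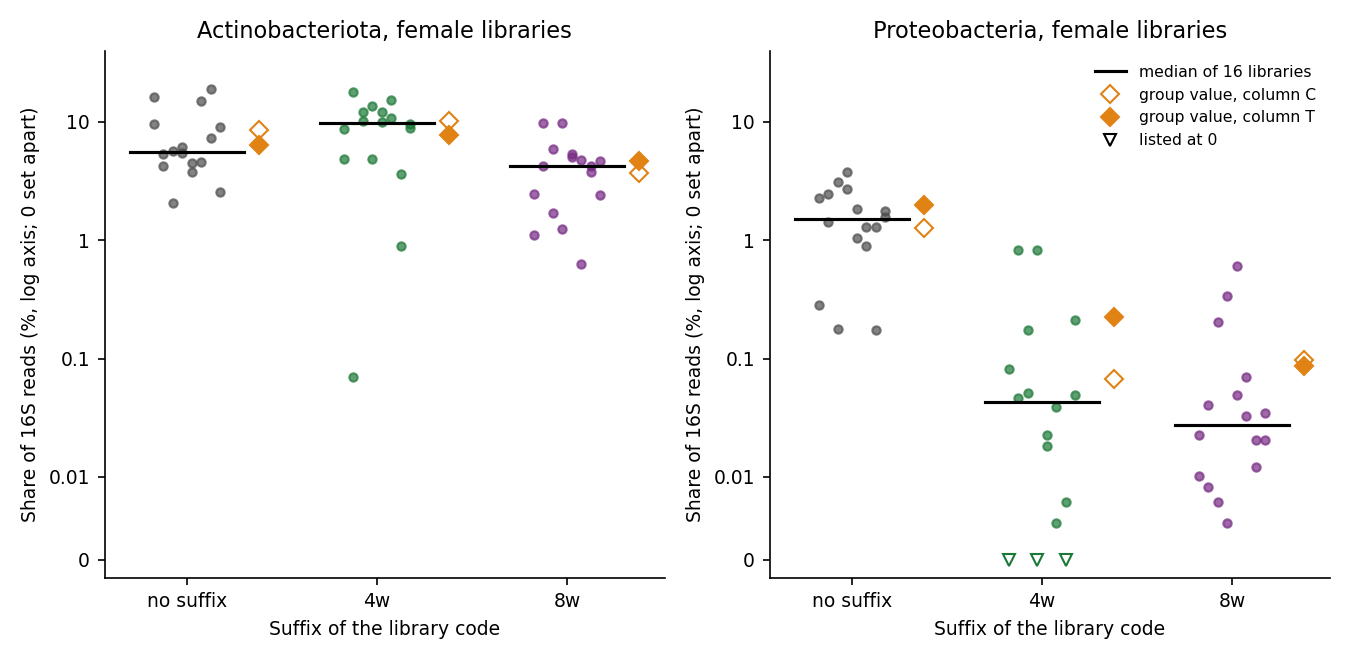
Each point is 1 female library, with its share of 16S reads in percent on a log axis, by suffix of the library code; the bar is the median of 16 libraries, diamonds are the authors' group values and open triangles mark libraries listed at 0. Proteobacteria had a median of 1.51% with no suffix against 0.0427% and 0.0275% at 4w and 8w, while the Actinobacteriota medians were 5.56%, 9.82% and 4.25%.

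Actinobacteriota were present in 48 of 48 female libraries and took a larger share than Proteobacteria in 47 of them. With no suffix their share ran from 2.05% through a median of 5.56% to 18.9%. At 4w it ran from 0.0692% through a median of 9.82% to 17.9%, and 8 of 16 libraries held at least 10%. At 8w it ran from 0.631% through a median of 4.25% to 9.85%, and none held 10%. The 3 ranges overlapped, although 8 of the 16 libraries at 4w lay above the highest at 8w. Actinobacteriota were the third most abundant phylum in 20 of the 48 libraries and the second in 4.

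By code, Actinobacteriota were higher at 4w than with no suffix in 9 of 16 codes, with a median ratio of 1.61. At 8w they were lower than at 4w in 13 of 16 codes, with a median ratio of 2.69-fold, and lower than with no suffix in 10 of 16. The codes did not keep their order: Spearman's rho over the 16 codes was -0.44 between no suffix and 4w, 0.26 between 4w and 8w, and -0.31 between no suffix and 8w. For Proteobacteria the same 3 values were 0.08, -0.30 and -0.38. These are descriptions over 16 codes, without a p.

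The largest single departure was the 4w library of code A925. Actinobacteriota made up 0.0692% of it, against 0.889% in the next lowest 4w library, and 5.40% and 9.85% in the same code with no suffix and at 8w. Its Proteobacteria share of 0.820% was the second highest at 4w. It is the only female library in which Proteobacteria exceeded Actinobacteriota. Its Desulfobacterota share was 9.90%, Firmicutes took 56.0% and Bacteroidota 32.3%.

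**Figure D2:**
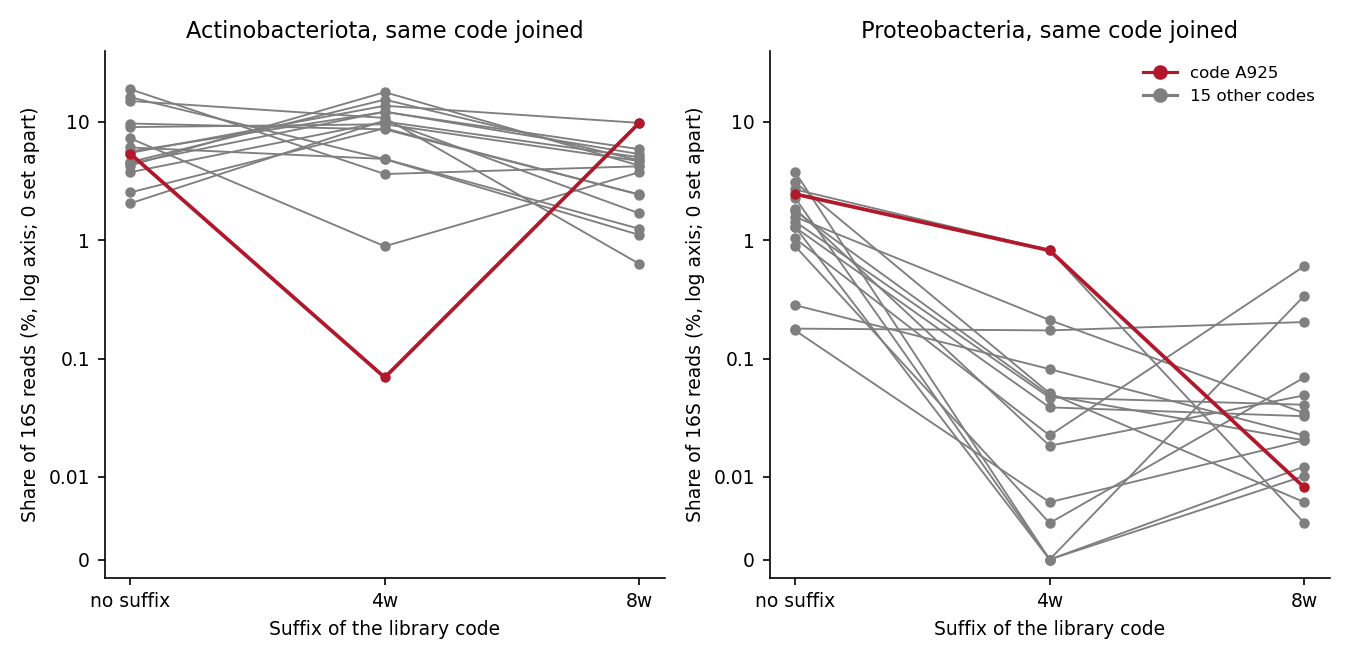
Lines join the 3 female libraries of 1 code, with the share of 16S reads in percent on a log axis and 0 set apart; code A925 is in red and the other 15 codes are in grey. Proteobacteria descended from no suffix to 4w in all 16 codes, whereas Actinobacteriota crossed in both directions and A925 dipped to 0.0692% at 4w.

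The week 8 and week 4 libraries of females were compared over all named phyla with a mean share of at least 0.01% in the table. There were 12 such phyla, both of these 2 among them. Neither passed in limma on log2(percent + 0.01) with Benjamini-Hochberg adjustment, with 16 libraries a week. Actinobacteriota differed by -0.86 on that log2 scale, week 8 minus week 4 (SE 0.555, adjusted p = 0.398 in limma). Proteobacteria differed by -0.14 (SE 0.644, adjusted p = 0.830 in limma). No phylum was called in either direction, a background of 0.0% of those tested for higher and 0.0% for lower shares; 2 had an unadjusted p under 0.05, and the permutation test called none. The median difference over the 12 phyla was 0.16 on the log2 scale.

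The Actinobacteriota value turned on the 4w library of A925 and on the scale. Without that library the difference was -1.27 (SE 0.390, adjusted p = 0.0324 in limma), while leaving out any other of the 32 libraries gave an adjusted p of at least 0.259. Without the lowest library of each week, which leaves out the same 4w library, it was -1.11 (adjusted p = 0.0599 in limma). On plain percent shares the week 8 mean minus the week 4 mean was -4.80 percentage points, with an adjusted p of 0.0242 in limma and 0.0259 in a two-sided permutation test. On ranks the adjusted p was 0.0486 in limma and 0.0794 by permutation. These settings were added after the data were seen. Because the 2 weeks share codes and, possibly, animals, each p measures only the spread between libraries.

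The Proteobacteria shares after the start of HFD sat in few libraries. At 4w the 2 highest, A927 with 0.824% and A925 with 0.820%, held 70.1% of the sum of the 16 shares, and the next held 0.212%. At 8w the 2 highest, A928 with 0.604% and A942 with 0.340%, held 63.9% of the sum. Of these 4 codes none was high at both weeks: A927 stood at 0.00407% and A925 at 0.00814% at 8w, and A928 stood at 0.0224% and A942 at 0 at 4w. With no suffix the 2 highest of 16 held 26.4% of the sum. For Actinobacteriota that share was 29.2% with no suffix, 23.1% at 4w and 29.3% at 8w.

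Neither phylum had a relation to Firmicutes or Bacteroidota that passed adjustment on percent shares within a week set of females. Each of 12 relations (2 phyla, 2 partners, 3 suffixes, 16 libraries each) was given a two-sided permutation p for Pearson's r and for Spearman's rho, adjusted over the 12. At 8w Actinobacteriota were lower where Bacteroidota were higher, with r = -0.63 (permutation p = 0.00961, adjusted p = 0.115) and rho = -0.65 (permutation p = 0.00778, adjusted p = 0.0934). Without the 2 libraries farthest from the median Actinobacteriota share, r was -0.52. With Firmicutes at 8w, Actinobacteriota had r = 0.48 and rho = 0.59, with adjusted permutation p of 0.193 and 0.109; r without the 2 farthest was 0.41. On log2 shares 2 of the 12 relations passed for Pearson's r: Actinobacteriota with Bacteroidota at 8w (r = -0.65, adjusted permutation p = 0.0407) and Proteobacteria with Bacteroidota with no suffix (r = 0.76, adjusted permutation p = 0.0193). For Actinobacteriota on percent shares at 4w the signs were the same as at 8w and the values smaller, with r = -0.35 for Bacteroidota and 0.33 for Firmicutes.

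For Proteobacteria the relations farthest from 0 were those with no suffix, and none passed on percent shares. There Proteobacteria were higher where Bacteroidota were higher, with r = 0.56 and rho = 0.56 (adjusted permutation p of 0.150 and 0.109), and lower where Firmicutes were higher, with r = -0.48 and rho = -0.44 (adjusted permutation p of 0.193 and 0.203). Without the 2 libraries farthest from the median, A942 and A926, which had the highest Proteobacteria shares, r was 0.74 with Bacteroidota and was -0.80 with Firmicutes (adjusted permutation p of 0.0142 and 0.0072). At 4w r had the same signs, at 0.41 with Bacteroidota and -0.34 with Firmicutes. Without the 2 libraries farthest from the 4w median, r was 0.13 and -0.0033. At 8w r was -0.14 and 0.11, and 0.049 and 0.046 without the 2 farthest there. Whether the relations differ between weeks was not tested.

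Over all 48 female libraries Proteobacteria had rho = -0.57 with Firmicutes and 0.58 with Bacteroidota, given as a description without a p. At 8w alone the same values were 0.02 and -0.02, the opposite signs. The medians of all 3 phyla differ between the suffixes: Firmicutes stood at 31.9%, 68.5% and 64.8%, and Bacteroidota at 50.0%, 19.3% and 24.5%, for no suffix, 4w and 8w. The 2 member phyla had rho = 0.04 with each other over the 48 libraries.

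**Figure D3:**
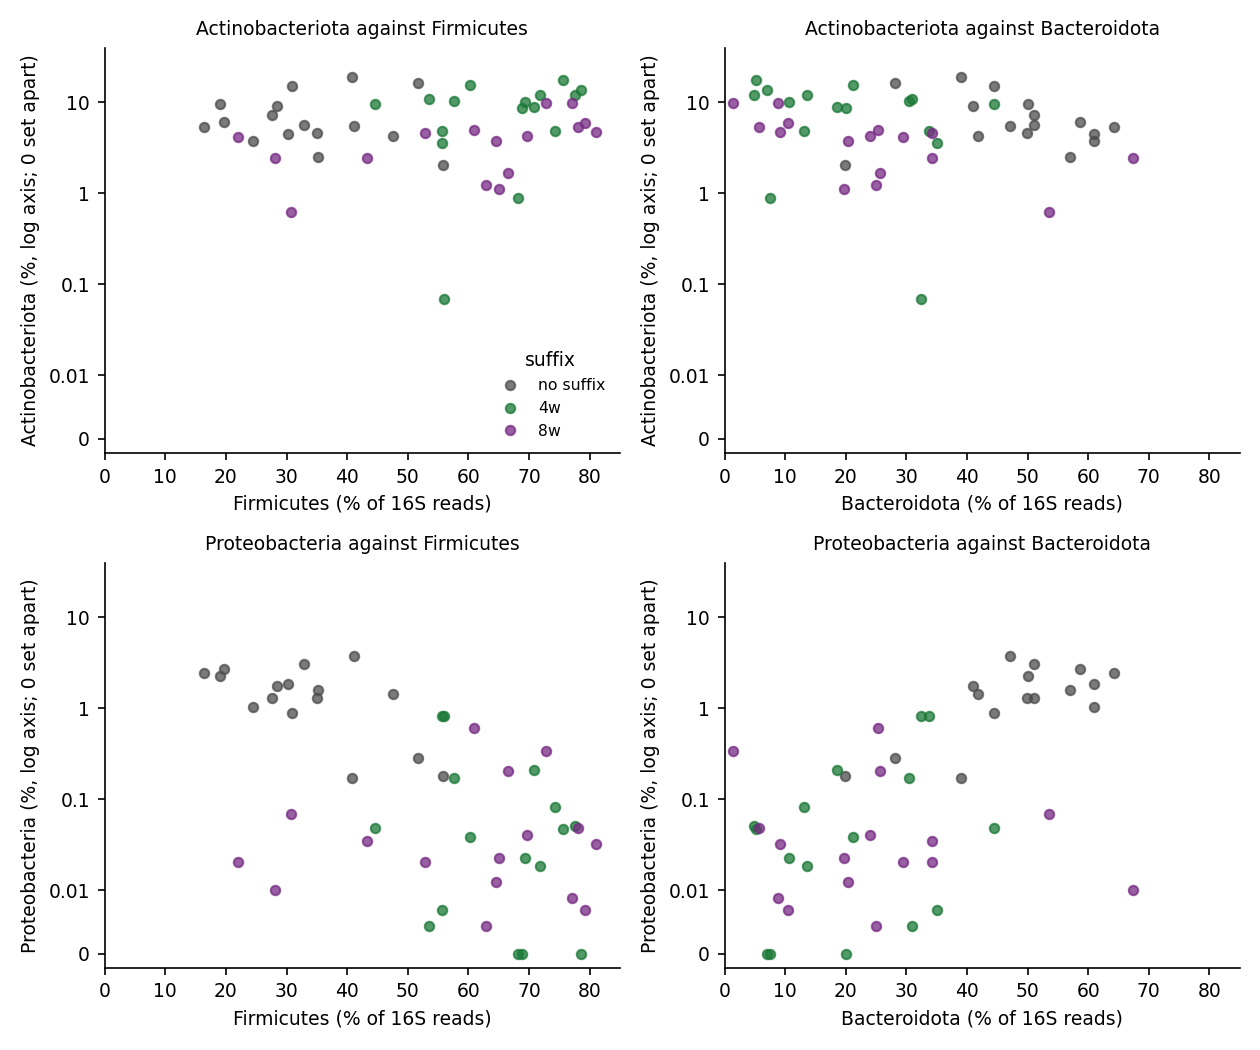
Each point is 1 of 48 female libraries, with Actinobacteriota (top) or Proteobacteria (bottom) in percent on a log axis with 0 set apart, against Firmicutes (left) or Bacteroidota (right) in percent on a linear axis, coloured by suffix. In the Proteobacteria panels 13 of the 16 libraries with no suffix lie above every 4w library, and the pooled rho were -0.57 and 0.58.

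In males both phyla were above 0 in 67 of 67 libraries. Actinobacteriota ran from 1.62% through a median of 6.92% to 57.0%, with quartiles of 4.54% and 13.2%. The highest library, F261558, stood apart from the next at 31.1%, and it is the only one of the 115 libraries in which Actinobacteriota were the most abundant phylum; its Firmicutes share was 21.7%. They were the second most abundant phylum in 13 male libraries and the third in 27. Proteobacteria ran from 0.138% through a median of 2.69% to 16.5%, with quartiles of 1.71% and 4.87%. They reached 1% in 58 of 67 libraries and 10% in 5. Proteobacteria exceeded Actinobacteriota in 17 male libraries, against 1 of 48 in females. The sexes come from separate tables with different sets of phyla, and the difference between them was not tested.

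The male codes fall into 3 styles, and the labels do not say what a style marks. Of the 67 codes 13, all with a letter, are another code plus 1 character, so some libraries may share an animal. The styles are described separately because values moved with them, and they are neither weeks nor feeds here. The 24 codes of 4 digits had a median Actinobacteriota share of 10.8%, the 15 codes that end in a point and a digit had 7.07% and the 28 codes with a letter had 5.04%. For Proteobacteria the medians ran the other way, at 2.11%, 2.29% and 4.47%. Bacteroidota had medians of 12.5%, 9.98% and 40.4%. Proteobacteria exceeded Actinobacteriota in 2, 2 and 13 libraries of the 3 styles. Ranges overlapped between all styles for both phyla: the lowest and highest Proteobacteria shares were 0.138% and 7.86%, 0.566% and 14.4%, and 0.447% and 16.5%.

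**Figure D4:**
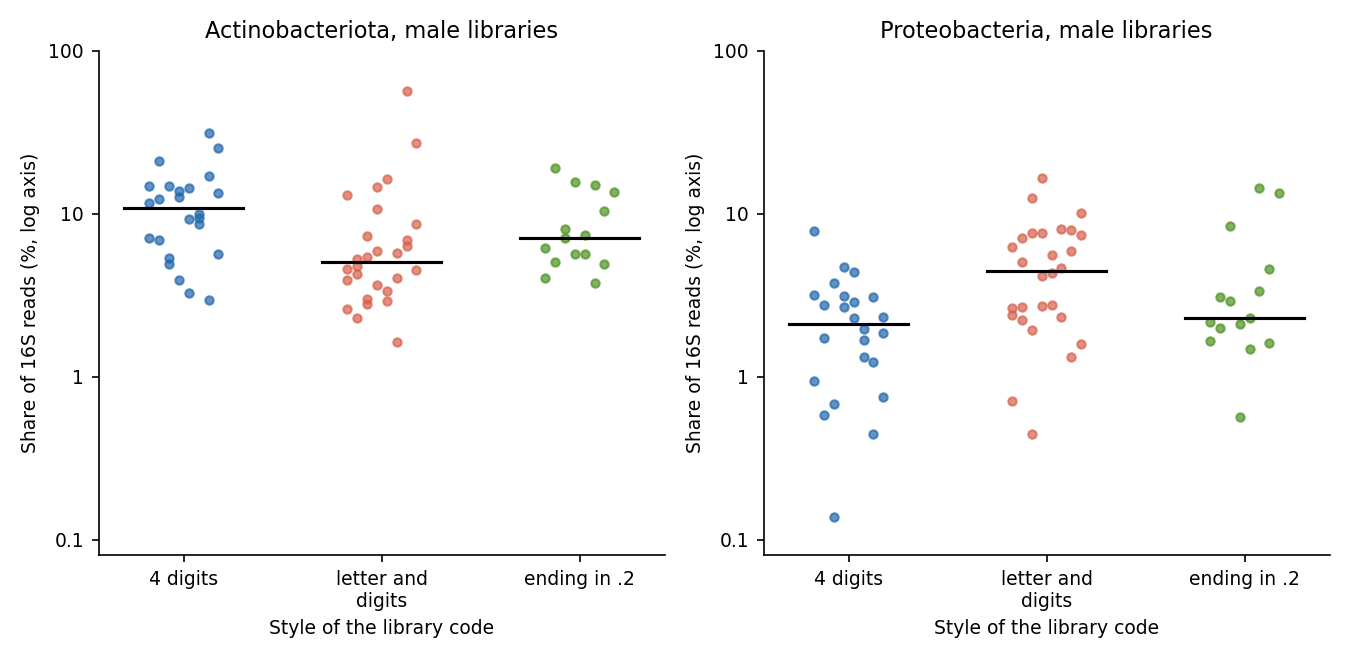
Each point is 1 male library, with its share of 16S reads in percent on a log axis, by the style of its code, which the labels do not explain; the bar is the median of 24, 28 and 15 libraries from left to right. Actinobacteriota medians were 10.8%, 5.04% and 7.07% and those of Proteobacteria 2.11%, 4.47% and 2.29%, with ranges that overlap.

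Over the 67 male libraries Actinobacteriota had rho = -0.45 with Bacteroidota and 0.04 with Firmicutes. Within the styles the value with Bacteroidota was -0.17 for 4 digits, -0.19 for those ending in a point and a digit and -0.45 for codes with a letter, so that the pooled value was met within only 1 style. With Firmicutes the 3 values were -0.22, -0.38 and -0.10, against a pooled 0.04. With Firmicutes taken as a share of the reads other than Actinobacteriota, they were 0.17, -0.14 and 0.21, against a pooled 0.29. The sign thus changed with that scale for 4 digits and for codes with a letter, and stayed negative for those ending in a point and a digit. The part of the closed sum in these values was not tested. Proteobacteria had rho = -0.26 with Firmicutes and 0.22 with Bacteroidota over all 67, and within the codes with a letter both were -0.04. No p is given for these, since the male codes name neither week nor feed and the libraries were not split by them.

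The phyla whose shares followed Proteobacteria most closely in males were Gemmatimonadota (rho = 0.54), Planctomycetota (0.51) and Acidobacteriota (0.45), out of 32 other phyla with a mean of at least 0.01%. All 3 belong to a list of 12 phyla common in soil and water, 11 of which had a row in the male table. The summed share of that list ran from 0.00451% through a median of 0.862% to 4.51%, and it had rho = 0.48 with Proteobacteria, at 0.50, 0.08 and 0.56 within codes of 4 digits, with a point and with a letter. With Actinobacteriota the summed share had rho = -0.08, at 0.23, -0.15 and 0.10 within the same styles. The phyla most like Actinobacteriota were Nitrospinota (0.44), Sva0485 (0.39) and MBNT15 (0.29), which were listed at 0 in 56, 43 and 39 of the 67 libraries. Their rho were 0.54, 0.62 and 0.59 within codes of 4 digits. Within codes with a point Sva0485 had -0.22 and MBNT15 -0.04, and within codes with a letter MBNT15 had -0.06. The other combinations had no value. The points share a table and a closed sum, and the rho are descriptions without a p.

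**Figure D5:**
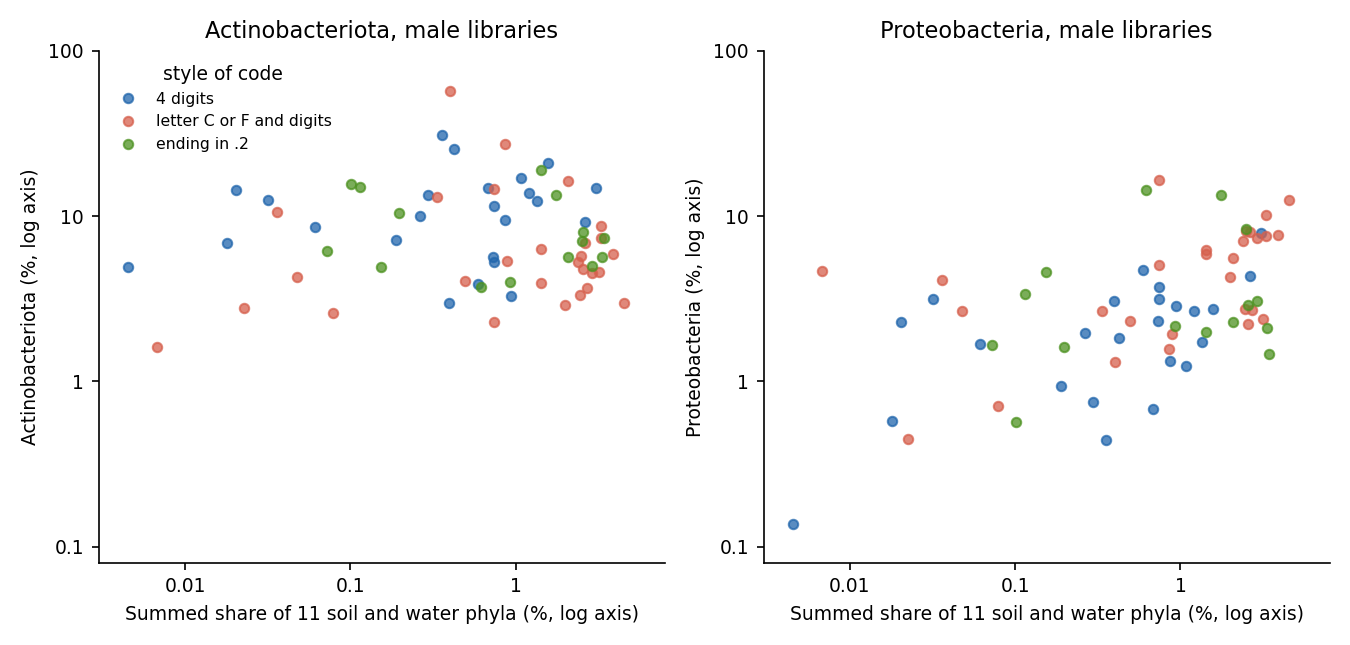
Each point is 1 of 67 male libraries, with Actinobacteriota (left) or Proteobacteria (right) against the summed share of 11 soil and water phyla, all in percent on log axes, coloured by style of code. Proteobacteria had rho = 0.48 with the sum and Actinobacteriota -0.08.

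In females the phyla most like Proteobacteria over 48 libraries were Chloroflexi (rho = 0.71), Acidobacteriota (0.66) and Verrucomicrobiota (0.64). Chloroflexi had rho of 0.06, 0.25 and 0.36 within no suffix, 4w and 8w, and Acidobacteriota 0.06, -0.37 and 0.04. Verrucomicrobiota, the phylum of the mucus degrader Akkermansia, had 0.46, 0.41 and 0.40. At 4w that phylum was above 0 only in the libraries of A941 (0.00407%) and A946 (0.00203%), so the 4w rho rests on them. Most 8w libraries also had it at 0, among them all codes from A924 to A931. With no suffix those codes held from 6.94% (A926) to 18.4% (A924), and codes A939 to A946 at most 4.44% (A944). The rho with no suffix and at 8w thus span 2 runs of codes that differ in this phylum, and what sets them apart was not tested. Over the 48 libraries Chloroflexi, Acidobacteriota and Verrucomicrobiota were listed at 0 in 31, 27 and 23. The soil and water list summed to a median of 0.0702% with no suffix and was listed at 0 in 13 of 16 libraries at 4w and in 10 of 16 at 8w, so it was lower in the same suffixes as Proteobacteria; its part in the Proteobacteria values was not tested. Those most like Actinobacteriota were Chloroflexi (0.17), Firmicutes (0.17) and Euryarchaeota (0.12), the last above 0 in 1 library.

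The feeds were compared through the authors' group values, 1 for each group and thus without SD, n or test. In the female tables the columns are coded C and T; C was read as CD and T as HfiD by elimination, and the direction of each female difference rests on that reading. Female Actinobacteriota stood at 6.44% in HfiD and 8.62% in CD at 0 weeks of HFD, at 7.72% and 10.3% at 4 weeks, and at 4.70% and 3.69% at 8 weeks. None of these was 2-fold apart, against a background of 58.3%, 57.1% and 30.0% of the phyla compared at 0, 4 and 8 weeks. Male Actinobacteriota stood at 8.96% in HfiD and 4.96% in CD at 0 weeks, at 11.9% and 13.1% at 4 weeks, and at 9.03% and 10.2% at 8 weeks. None was 2-fold apart, where 14.3%, 11.1% and 20.0% of the male phyla were.

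Female Proteobacteria stood at 1.99% in HfiD and 1.27% in CD at 0 weeks, at 0.226% and 0.0676% at 4 weeks, and at 0.0872% and 0.0974% at 8 weeks. The 4-week pair was the only one of the 12 differences of either phylum past 2-fold, at 1.60 on the log2(percent + 0.01) scale and a plain ratio of 3.34. At that time 4 of the 7 phyla compared (57.1%), Proteobacteria among them, were at least 2-fold apart. The Proteobacteria value was under 2-fold with a pseudocount of 0.1 (0.96) and after centring on the log mean of the phyla (0.79). Only 2 of the 16 libraries at 4w lay above both group values and 11 lay below both, so the group values there stand above most libraries. The 2 above both, A925 and A927, held 70.1% of the summed shares; their feed is not named by the code, and the group difference was not recomputed without them. At 8w 3 libraries lay above both and 13 below both. Male Proteobacteria stood at 5.07% in HfiD and 2.62% in CD at 0 weeks, at 2.03% and 3.25% at 4 weeks, and at 5.47% and 3.67% at 8 weeks. The female values of both feeds were at most 0.226% at 4 and 8 weeks, whereas the male values were above 2% in each group at each time.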

How the data were processed

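Fecal 16S V4 amplicons of male and female mice were analysed. The authors deposited relative abundances per phylum as fractions of the reads, for 115 libraries (48 female, 67 male) and 12 groups; fractions were multiplied by 100. The tools fastp 0.23.1 and R 4.0.3, appear in the submitters' processing notes with no role. How reads were denoised, classified, rarefied or averaged into groups is not given in the sources used here, and a change in any of them could move scarce phyla most. Read depth is unknown. Library codes match no single sample label and were assigned to no feed.

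The 2 phyla, the phylum lists and the tests were chosen with earlier results of these data known. In every result both phyla were named, with Firmicutes and Bacteroidota as partners, and for likeness the 3 phyla of highest Spearman's rho among those with a mean of at least 0.01%; lists of 10 gut and 12 soil and water phyla were used as counts and sums. All 10 gut phyla had a row in both sexes, and of those 12 phyla 9 had one in females and 11 in males. Female 8w and 4w libraries were compared with limma 3.58.1 (R 4.3.3, lmFit and eBayes) on log2(percent + 0.01), adjusted by Benjamini-Hochberg over 12 phyla, and by permutation with 100000 resamples; the fit was tested on simulated data. No male column carried a week, so the planned male fit was not made. Correlations and their permutations used NumPy 2.4.6 and pandas 2.3.3, with ranks from SciPy 1.17.1. Group values were compared by a 2-fold rule. Alternatives were the pseudocount, the filter, log ratios, rescaling, percent shares, ranks and leaving out libraries. Columns of a code deviated together only weakly (median r 0.0432, over 0.1 in 7 of 16 codes), so codes were not used as pairs.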

Additional observations from a re-analysis of the deposited data

Results flagged for a closer look

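The differences between the authors' group values of the 2 feeds changed sign between the sexes at 1 time or between times in 1 sex. Each rests on 1 value per group, and none of these changes of sign was tested. On the log2(percent + 0.01) scale, HfiD minus CD, Actinobacteriota in females were at -0.42, -0.41 and 0.35 at 0, 4 and 8 weeks of HFD, and in males at 0.85, -0.13 and -0.18. Proteobacteria in females were at 0.64, 1.60 and -0.14, and in males at 0.95, -0.68 and 0.57. So at 0 weeks Actinobacteriota were higher in HfiD males and lower in HfiD females (after centring on the log mean of the phyla the female value was 0.14, the same sign as in males), and at 4 weeks Proteobacteria were lower in HfiD males and higher in HfiD females. After the same centring the Proteobacteria values in females were 1.21, 0.79 and 1.61, with no change of sign between times. In males they were 0.73, -0.67 and 0.67. The female direction rests on reading T as HfiD.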

How the results depend on the processing

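The limits are the unknown depth, the closed sum, the lack of feed labels on libraries and the single group values. For week 8 against week 4, 26 of 30 alternatives for the 2 phyla kept direction and side of the threshold. Proteobacteria turned to 0.28 with a pseudocount of 0.001. On plain percent shares Actinobacteriota were at -4.80 points and called, with 1 phylum lower in limma, and 1 higher and 1 lower by permutation. On ranks in limma Actinobacteriota lay -8.88 mean ranks apart and were called, 1 phylum lower; the rank permutation test called none. Leaving out each of the 32 libraries gave -1.27 to -0.70 for Actinobacteriota, -0.38 to 0.12 for Proteobacteria and 0 to 1 phyla called in each direction; the calls came without the 4w library of A925. With library code as a replicate block the adjusted p in limma was 0.441 for Actinobacteriota and 0.847 for Proteobacteria, and no call changed; 1 of 16 codes correlated best with its own number. The cause of these changes was not tested.

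Of 12 female relations none passed as computed; 2 passed for Pearson's r on log2 shares and 2 without the 2 farthest libraries, and 1 for Spearman's rho without them. The rank correlation changed sign without the 2 farthest libraries for Proteobacteria with Firmicutes at 4w (0.073) and with Bacteroidota at 8w (0.12). Over all libraries it changed against 8w to 0.58 for Proteobacteria with Bacteroidota and -0.57 with Firmicutes, and against no suffix to 0.17 for Actinobacteriota with Firmicutes, which was 0.021 with the partner as a share of the remaining reads. In males Actinobacteriota with Firmicutes changed to -0.22, -0.38 and -0.10 within the 3 code styles, and Proteobacteria with Bacteroidota to -0.039 within codes with a letter. With the partner as a share of the remaining reads, male Actinobacteriota with Firmicutes were at 0.17, -0.14 and 0.21 within the styles and 0.29 pooled.

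Of 71 alternatives for the group values 64 kept direction and side of 2-fold. Centring on the log mean of the phyla subtracted -0.57, 0.82 and -1.75 from all female values at 0, 4 and 8 weeks. It gave 0.14, -1.23 and 2.10 for female Actinobacteriota and 1.21, 0.79 and 1.61 for female Proteobacteria. A pseudocount of 0.1 gave 0.96 for female Proteobacteria at 4 weeks. All 16 alternatives for the library medians stayed within 1 SD of the libraries, which says little. A mean cannot lie more than 1 SD from its median, so that rule could not fail for the mean. Rescaling to the named phyla changed little, for instance from 1.51% to 1.52% for female Proteobacteria with no suffix. With the mean, Proteobacteria in females were at 1.63%, 0.147% and 0.0923% with no suffix, at 4w and at 8w. The medians were 1.51%, 0.0427% and 0.0275%.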
